A study of Homo sapiens with 6 samples.

Results

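The S100 proteins are small calcium-binding proteins, and the present account follows 9 of their genes (S100A4, S100A6, S100A9, S100A10, S100A11, S100A13, S100A14, S100A16 and S100P) together with TESC, which encodes tescalcin, in RNA-seq libraries of Huh7 cells. Huh7 is a human hepatocellular carcinoma line. The 10 genes were taken by name from a table of 27394 gene names, as members of the EF-hand superfamily, and the choice was made because S100A9 and TESC were lower after knockdown of CTSV in these same libraries. The differences between the groups are therefore given for the 10 genes as a description, without a p-value. Libraries came from Huh7 cells that carry a control short hairpin RNA (shRNA; genotype labelled WT, 3 libraries) and from Huh7 cells with an shRNA against CTSV, the gene of the lysosomal protease cathepsin V (3 libraries). Both groups therefore carry an shRNA and were grown in the same medium, DMEM with fetal bovine serum. How many shRNAs or clones were used, and whether replicate libraries stem from separate cultures, is not stated, so the spread between libraries may be technical.

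An EF-hand is a helix-loop-helix fold whose loop holds a calcium ion. S100 proteins form dimers and, on binding calcium, expose a surface that grips target proteins such as annexins, myosin and ezrin. Some are also secreted and act on cell-surface receptors. Tescalcin, also called CHP3, is a myristoylated EF-hand protein of the calcineurin B homologous protein family. In liver, S100A9 is best known from neutrophils and monocytes, whereas S100A6, S100A10 and S100A11 are made by many epithelial cells.

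Library totals lay between 16258803 and 18106207 counts. CTSV itself was at 42.3, 44.5 and 41.0 CPM (counts scaled to library size with TMM) with the control shRNA and at 18.39, 15.996 and 16.28 with the CTSV shRNA. The 12 hepatocyte markers examined were all measured, with ALB at 11482 and AFP at 9999 CPM with the control shRNA. With the CTSV shRNA these were at 13378 and 13586 CPM. KRT8 went from 1038 to 645 CPM and KRT18 from 337 to 202 CPM. In the edgeR test given below, 6 of the 12 rose and 3 (KRT8, KRT18 and TTR) fell, beside 18.7% and 21.6% of all genes tested. Because the samples are bulk RNA, fewer cells that express a gene and less RNA per cell cannot be told apart. Of all 15968 genes that passed the count filter, 2982 rose and 3451 fell at an adjusted p under 0.05 in edgeR's quasi-likelihood test, so that 40.3% were called in either direction. Rises were 46.4% of these calls, and 32.1% when offsets for transcript length and GC content were added. Among the 10 genes, 9 passed the filter, and S100A14 did not. The fit called 5 of the 9 as lower (S100A9, TESC, S100P, S100A6 and S100A11) against 21.6% of all genes tested, and 1 as higher (S100A10) against 18.7%. As the genes were chosen from this contrast, nothing is read from these counts. Their median log2 fold change was -0.57, and that of all tested genes 0.02.

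Of the 10 genes, 8 lie on chromosome 1, in or near the S100 gene cluster of its long arm. On hg38, S100A9 (ENSG00000163220) spans positions 153357854 to 153361027 on the plus strand, with 3 exons in its annotated transcript. S100P (ENSG00000163993) lies on chromosome 4 from 6693069 to 6697170, plus strand, and TESC (ENSG00000088992) on chromosome 12 from 117038923 to 117099479, minus strand. All 10 are annotated as protein coding. The S100 genes are short, with 1.65 kb of genomic span for S100A6 and 15.4 kb for S100A11, while TESC spans 60.6 kb. The median length of the longest transcript was 1102 bases over the 10 genes and 3210 bases over all tested genes with a length.

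Promoter windows of 300 bases, 250 before and 50 after a start placed by RefSeq (GRCh38.p14), were used. They cover 9 of the 10 genes in 12 windows, with none for TESC. The windows of S100A9, S100P, S100A11 and S100A10 are printed because S100A9 and S100P had the lowest ratios of knockdown to control level among the S100 genes, and because S100A10 and S100A11 are neighbours that differed in opposite directions. Capitals mark matches on either strand to 7 motifs: the TATA box (TATAAA), the GC box (GGGCGG), AP-1 (TGANTCA), C/EBP (TTGCNNAA), NF-kB (its consensus), the antioxidant response element (TGACNNNGC) and the C/EBP-ATF response element (TGATGNAA). No matches overlap in the 4 windows, each read 5′ to 3′ on its gene's strand. They lie at chr1:153357604-153357903 (S100A9, plus), chr4:6693628-6693927 (S100P, plus), chr1:152036955-152037254 (S100A11, minus) and chr1:151993810-151994109 (S100A10, minus). Motif positions count from the RefSeq start, which is not always the end of the gene in the coordinates used here. The windows of S100P, S100A11 and S100A10 lie wholly inside their genes, and S100A11 is placed at 152032506 to 152047907.
S100A9: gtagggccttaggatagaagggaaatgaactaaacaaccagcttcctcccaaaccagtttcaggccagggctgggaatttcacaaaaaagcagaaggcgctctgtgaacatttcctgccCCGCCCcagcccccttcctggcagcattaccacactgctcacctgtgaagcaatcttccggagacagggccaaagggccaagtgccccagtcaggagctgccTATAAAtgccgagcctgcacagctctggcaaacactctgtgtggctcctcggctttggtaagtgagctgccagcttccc
S100P: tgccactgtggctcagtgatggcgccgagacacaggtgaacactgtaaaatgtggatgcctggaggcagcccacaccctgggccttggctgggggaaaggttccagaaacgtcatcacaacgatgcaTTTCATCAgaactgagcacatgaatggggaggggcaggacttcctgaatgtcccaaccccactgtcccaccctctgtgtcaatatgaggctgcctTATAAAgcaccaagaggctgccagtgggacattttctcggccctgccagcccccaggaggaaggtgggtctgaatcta
S100A11: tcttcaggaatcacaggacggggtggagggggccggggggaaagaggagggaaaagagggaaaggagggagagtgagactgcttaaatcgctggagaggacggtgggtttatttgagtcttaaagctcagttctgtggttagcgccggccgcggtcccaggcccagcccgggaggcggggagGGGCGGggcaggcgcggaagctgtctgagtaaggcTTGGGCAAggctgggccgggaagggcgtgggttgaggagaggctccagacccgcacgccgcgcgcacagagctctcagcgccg
S100A10: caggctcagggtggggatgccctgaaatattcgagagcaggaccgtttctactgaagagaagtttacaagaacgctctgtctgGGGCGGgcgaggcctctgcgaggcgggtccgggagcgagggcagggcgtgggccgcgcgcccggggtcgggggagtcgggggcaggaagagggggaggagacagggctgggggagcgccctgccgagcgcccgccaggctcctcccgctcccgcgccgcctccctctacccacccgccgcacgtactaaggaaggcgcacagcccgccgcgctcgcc

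The S100A9 window holds a TATA box whose first base is 29 bases before the start, at position -29, and a GC box at -131. S100P holds a TATA box at -28 and a C/EBP-ATF response element at -123. S100A10 has no TATA match, and its GC box begins at -167. The S100A11 window holds a GC box at -68 and a C/EBP match at -33. Base composition also differed among these 4 windows: 55.7% GC with 5 CpG pairs in S100A9 and 56.0% with 5 in S100P, against 65.3% with 22 in S100A11 and 71.7% with 32 in S100A10. The windows not printed ranged from 58.3% GC in S100A16, with 3 and 8 CpG pairs, to 69.3% with 31 in S100A6. S100A6 was also lower with the CTSV shRNA, so the 4 windows, picked by their differences, do not stand for the rest. The medians over 35116 RefSeq windows were 58.7% GC and 14 CpG pairs. TATA matches occurred in 4 of the 12 windows (S100A4, S100A9, S100A13 and S100P) and in 11.5% of all windows. The GC box was in 6 of 12 and 45.0%, NF-kB in 1 and 5.91%, the antioxidant response element in 3 and 13.3%, C/EBP in 1 and 10.5%, and the C/EBP-ATF response element in 1 and 3.62%. AP-1 letters were in 0 of the 12 and in 7.71% of all windows. These are matches of letters in the windows, with no measurement of binding.

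S100A9, the calcium-binding alarmin that pairs with S100A8 to form calprotectin, was at far below its control level with the CTSV shRNA. Its normalised level was 10.7, 10.7 and 9.97 CPM with the control shRNA and 2.96, 2.91 and 2.37 CPM with the CTSV shRNA. The groups lay far apart, and each library stayed close to its group's mean. The means were 10.5 ± 0.429 and 2.75 ± 0.331 CPM (SD, n = 3 each), a ratio of 0.262 and a log2 fold change of -1.93 (SE 0.192). Raw counts were 191, 178 and 160 against 49, 48 and 43. S100A8 was looked up and had no entry among the 27394 gene names. All 27394 names carried counts, so genes without any reads may have been left out of them. A missing entry may therefore mean no reads, but the reason is not stated. The same holds for the listed markers below that had no entry. Myeloid cells are the main source of S100A9 in tissue, and 4 of 16 listed myeloid markers had an entry: LYZ (76.3 CPM with the control shRNA, 57.1 in knockdown), CSF3R (36.2 and 62.0), CD14 (2.60 and 2.14) and FCER1G (0.653 and 0.442). LYZ fell and CSF3R rose in the edgeR test. Their summed level was 111 to 123 CPM with the control shRNA and 120 to 125 CPM with the CTSV shRNA, and their part in the S100A9 difference was not tested. Keratinocytes also make S100 proteins, and 3 of 8 keratinocyte markers had an entry, with sums of 39.2 to 45.5 CPM and 32.3 to 38.5 CPM in the same order. For fibroblasts or stellate cells 5 of 8 had one (46.4 to 52.6 and 61.6 to 69.0 CPM), and for endothelial cells 2 of 8 (18.1 to 23.5 and 19.6 to 21.8 CPM).

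S100P, an S100 protein first described in placenta that binds ezrin and can be secreted, was the most abundant of the 10 genes with the control shRNA. It was at 116.5, 141 and 113 CPM there and at 50.7, 40.5 and 35.6 CPM with the CTSV shRNA. Every control library stood far above every knockdown library. The mean went from 124 ± 15.5 to 42.3 ± 7.68 CPM (SD, n = 3 each), a ratio of 0.342 and a log2 fold change of -1.55 (SE 0.086). Control replicate 2 was the highest library, and the knockdown libraries varied by 18.2% of their mean.

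TESC had the lowest ratio of all 10 genes, 0.256. It was measured at 7.51, 7.94 and 7.35 CPM with the control shRNA and at 1.69, 2.06 and 2.09 CPM with the CTSV shRNA, with counts of 134, 132 and 118 against 28, 34 and 38. The groups did not overlap, and the control libraries varied by only 4.03% of their mean. Means were 7.60 ± 0.306 and 1.95 ± 0.221 CPM (SD, n = 3 each), with a log2 fold change of -1.96 (SE 0.227). The adjoining TESC-AS1, whose annotated start lies next to that of TESC on the opposite strand, had 0 counts in 5 libraries and 7 in knockdown replicate 1.

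S100A6 and S100A11, both partners of annexins, were lower by a smaller amount. S100A6 (calcyclin) was at 25.6, 27.4 and 20.2 CPM with the control shRNA and at 20.14, 16.18 and 12.98 CPM with the CTSV shRNA. The lowest control and the highest knockdown library almost met. Its log2 fold change was -0.57 (SE 0.129), from 24.4 ± 3.75 to 16.4 ± 3.59 CPM (SD, n = 3 each). S100A11 was at 48.5, 55.8 and 48.1 CPM with the control shRNA and at 38.5, 30.7 and 34.5 CPM with the CTSV shRNA, with a clear gap between the groups. The antisense gene BX470102.1 overlaps S100A6 by 517 bases and had at most 5 counts in a library. The S100A11 log2 fold change was -0.55 (SE 0.087), from 50.8 ± 4.33 to 34.6 ± 3.87 CPM (SD, n = 3 each).

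S100A10, also called p11, is an S100 protein that does not bind calcium and holds annexin A2 at the membrane. Its level moved little and in the other direction, with 91.7, 107.7 and 94.4 CPM with the control shRNA and 117.6, 103.9 and 111.3 CPM with the CTSV shRNA. The groups overlapped, since control replicate 2 lay above knockdown replicate 2. The log2 fold change was 0.18 (SE 0.0629), from 97.9 ± 8.57 to 111 ± 6.88 CPM (SD, n = 3 each). It no longer passed the edgeR threshold without control replicate 1 (log2 fold change 0.13), without control replicate 3 (0.15) or without knockdown replicate 1 (0.14), nor in DESeq2 (0.17) or with all deposited entries kept (0.15).

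S100A16, a broadly expressed S100 protein, was at 12.5, 13.8 and 12.7 CPM with the control shRNA and at 11.6, 11.5 and 12.9 CPM with the CTSV shRNA. These groups overlapped, and the log2 fold change was -0.11 (SE 0.132). The remaining 3 genes were low. S100A4, which binds nonmuscle myosin heavy chain and is known from motile cells, was at 1.91, 1.81 and 2.43 CPM with the control shRNA and 1.03, 1.15 and 1.65 CPM with the CTSV shRNA. Its groups did not overlap, but its log2 fold change of -0.67 had an SE of 0.387 and did not pass the test. Groups that do not overlap with the knockdown lower were found for 25.0% of all genes tested. S100A4 shares 2044 bases with S100A3 on the same strand, so that reads may be split between these genes. S100A3 had at most 3 counts in any library.

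S100A13, known for the export of fibroblast growth factor 1, had 33, 21 and 20 counts with the control shRNA and 45, 25 and 13 with the CTSV shRNA. The knockdown libraries alone spanned 0.715 to 2.72 CPM, wider than the whole control range of 1.25 to 1.85, and the log2 fold change was 0.17 (SE 0.431). Its annotation overlaps S100A1 on the opposite strand by 3435 bases. Whether counting used strand is not stated, so that reads of this pair cannot be told apart. S100A1 had 9, 5 and 18 counts with the control shRNA and 6, 4 and 2 with the CTSV shRNA. S100A14 had 7, 0 and 6 counts against 2, 3 and 7. A count of 0 in control replicate 2 allows a level of up to 0.181 CPM (3 counts of the library's TMM-scaled total, counting error only), and no difference was detectable at this depth.

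**Figure D1:**
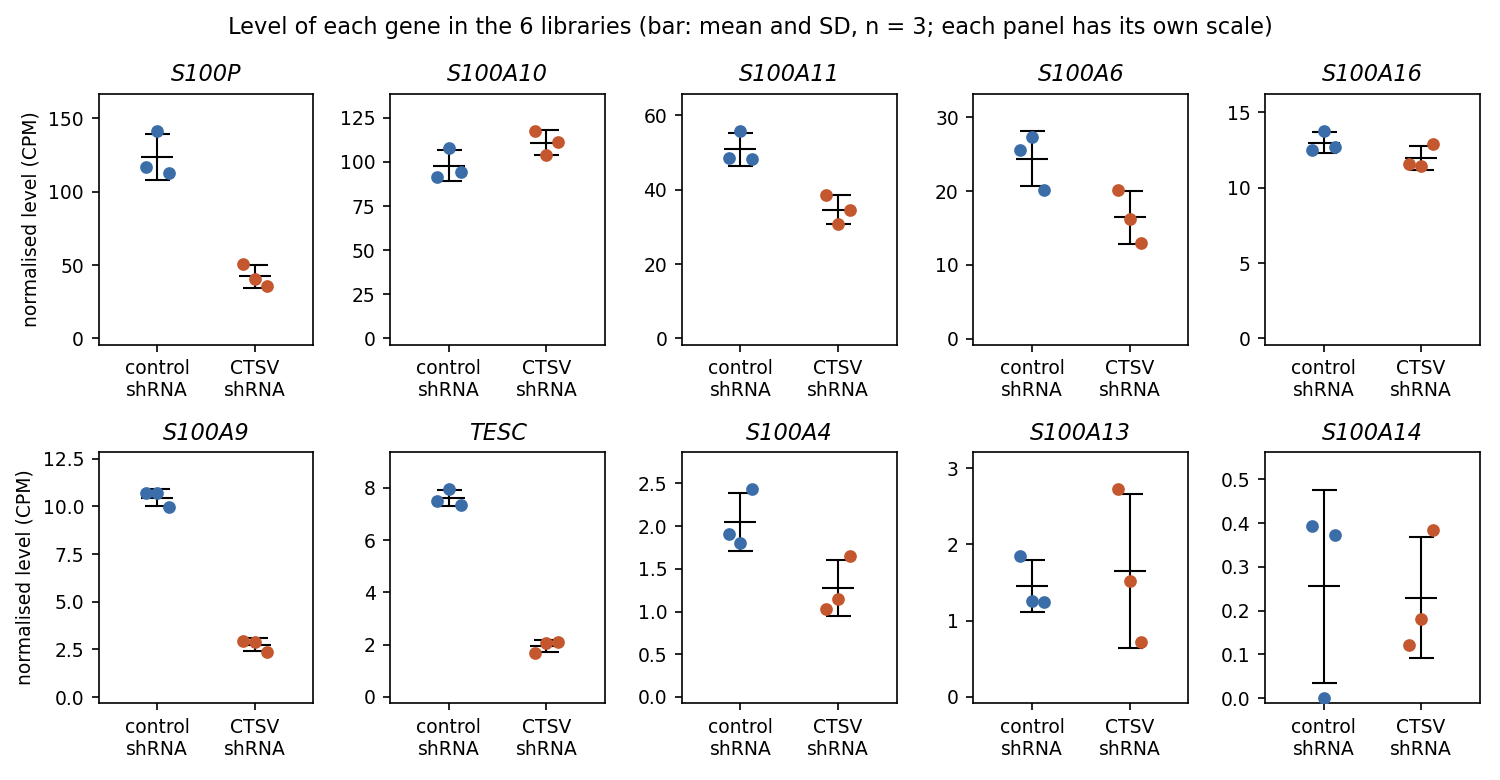
Normalised level (CPM, TMM) of each of the 10 genes in the 3 control and 3 CTSV shRNA libraries. Points are libraries and bars are the mean and SD of 3, with a separate linear scale in each panel. S100A9, TESC and S100P show wide gaps between groups, S100A10 and S100A16 overlap, and S100A13 and S100A14 scatter at low level.

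**Figure D2:**
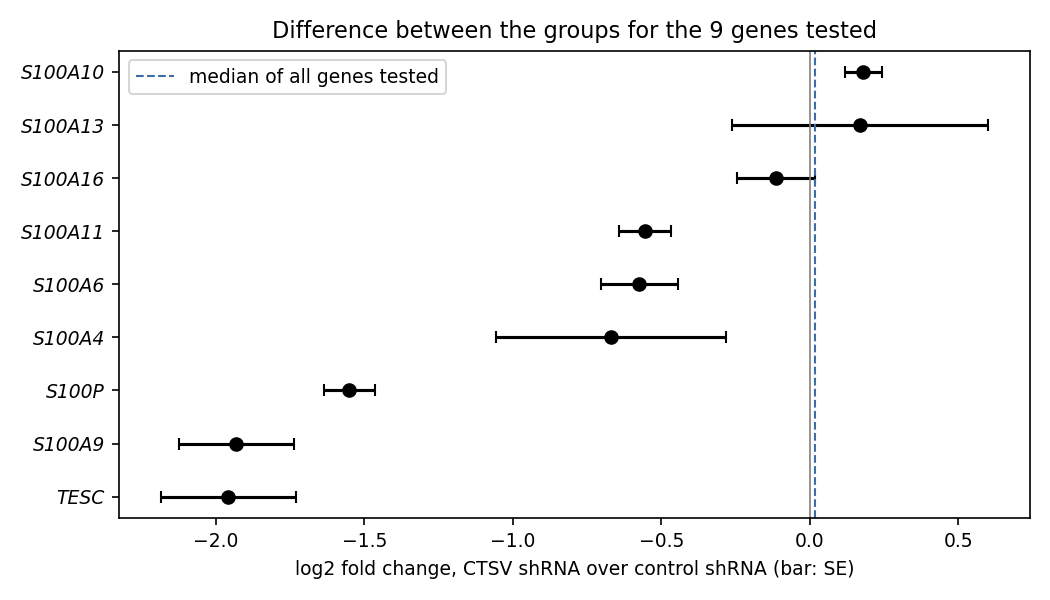
Log2 fold change (CTSV shRNA over control shRNA) with its SE for the 9 genes that passed the filter, and the median of all 15968 tested genes as a dashed line. TESC, S100A9 and S100P lie between -1.96 and -1.55, S100A4, S100A6 and S100A11 between -0.67 and -0.55, and the other 3 between -0.11 and 0.18.

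To compare levels between genes, counts were scaled by exonic length to TPM, a level per length. The order with the control shRNA was S100P (322 ± 31.8 TPM), S100A11 (249 ± 14.8), S100A10 (212 ± 13.5), S100A6 (83.8 ± 11.3), S100A9 (60.6 ± 1.84), S100A16 (25.5 ± 0.769), TESC (13.2 ± 0.193), S100A4 (6.69 ± 1.24), S100A13 (2.19 ± 0.537) and S100A14 (0.678 ± 0.587; SD, n = 3 each). The ranges of neighbours in this order did not overlap, so with exonic length each step was larger than the spread between libraries. In the knockdown libraries S100A10 (242 ± 13.3 TPM) came first, then S100A11 (171 ± 17.5), S100P (111 ± 18.0), S100A6 (56.9 ± 11.3), S100A16 (23.8 ± 2.01), S100A9 (16.02 ± 1.68), S100A4 (4.21 ± 1.17), TESC (3.41 ± 0.445), S100A13 (2.49 ± 1.48) and S100A14 (0.610 ± 0.379; SD, n = 3 each). There, TESC overlapped in range with both S100A4 and S100A13, and these steps did not exceed the spread. The size of the steps depends on the length used. With the longest transcript as the length, control means were 256 TPM for S100P, 226 for S100A11 and 216 for S100A10.

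The exchange of places at the top could be read in each library alone. S100P stood at 1.53, 1.58 and 1.44 times the TPM of S100A10 with the control shRNA and at 0.520, 0.470 and 0.386 times with the CTSV shRNA. S100A9 likewise went from above S100A16, with ratios of 2.52, 2.29 and 2.31, to below it, with 0.752, 0.749 and 0.539. The 9 S100 genes summed to 934, 1037 and 917 TPM with the control shRNA and to 685, 589 and 612 TPM with the CTSV shRNA. The mean sum with the CTSV shRNA was 65.3% of that with the control shRNA. S100P made up 63.2% of the net difference of 334 TPM, S100A11 23.3%, S100A9 13.3% and S100A6 8.05%, while S100A10, higher with the CTSV shRNA, contributed -9.12%. Of the sum, S100P took 33.4% ± 1.00 with the control shRNA and 17.6% ± 1.78 with the CTSV shRNA, and S100A10 22.0% ± 0.661 and 38.6% ± 1.89 (SD, n = 3 each). The share of S100A11 was 25.9% ± 0.343 with the control shRNA and 27.2% ± 1.32 with the CTSV shRNA, and the ranges of the groups overlapped.

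**Figure D3:**
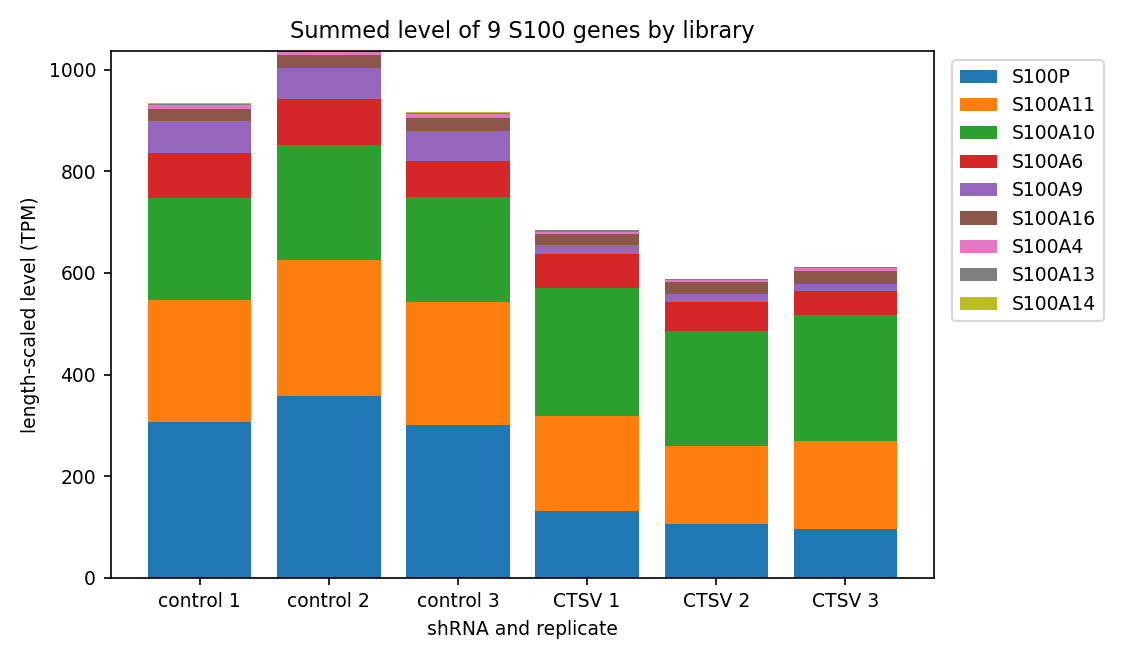
Summed length-scaled level (TPM) of the 9 S100 genes in each library, stacked by gene from an axis that starts at 0. The 3 control bars reach 917 to 1037 TPM and the knockdown bars 589 to 685 TPM, with the S100P block shrinking most and the S100A10 block slightly larger.

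Differences between neighbouring genes of the chromosome 1 cluster were not tested, and their values are given side by side. S100A10 and S100A11 are separated by 38115 bases and had log2 fold changes of 0.18 and -0.55. S100A9 lies apart from the next listed S100 gene, S100A6, by 173571 bases, and its log2 fold change of -1.93 was the most negative of the 8 S100 genes tested on chromosome 1. At the far end, where S100A16 and S100A13 had -0.11 and 0.17, the next gene past S100A13 is CHTOP, a chromatin-target protein gene that rose by 0.23 in log2 units (SE 0.060, edgeR adjusted p = 0.0024). S100A2, next to S100A4, was at 0.762 ± 0.449 CPM with the control shRNA and 0.745 ± 0.141 with the CTSV shRNA (SD, n = 3 each) and was not called. At the other side of S100A10, the thioesterase gene THEM4 was not called (log2 fold change 0.13, SE 0.0995, adjusted p = 0.302, same edgeR test). Near TESC, the F-box gene FBXW8 was not called either (-0.11, SE 0.0979, adjusted p = 0.411, same edgeR test).

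**Figure D4:**
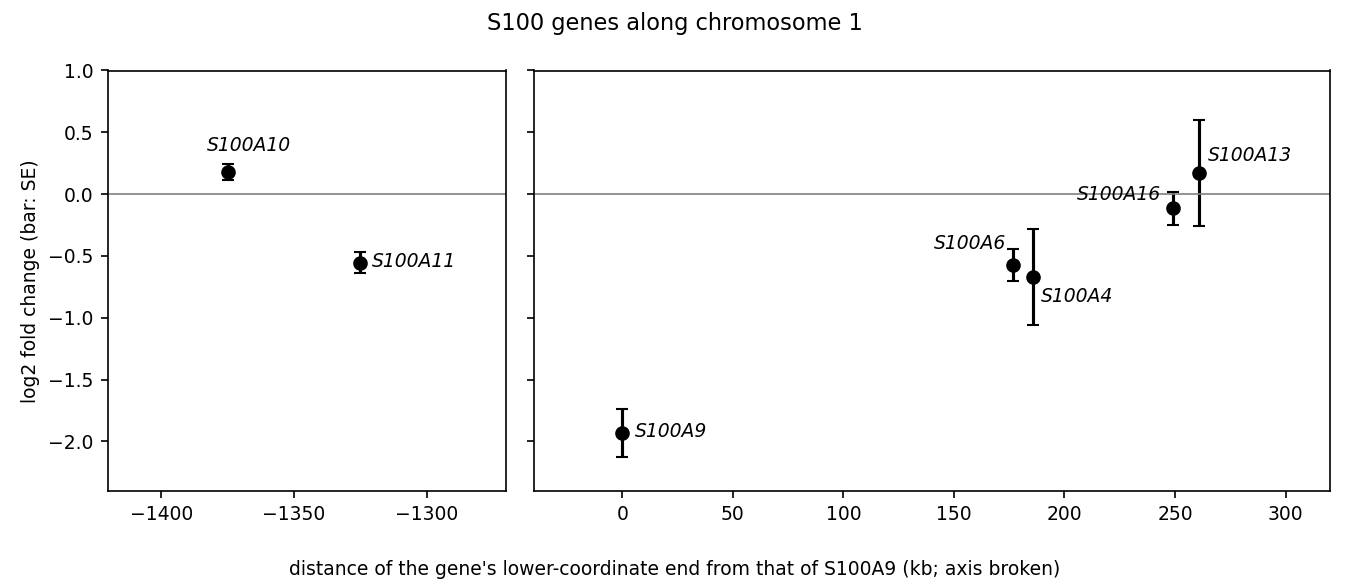
Log2 fold change with SE for the 7 tested members on chromosome 1, by distance in kb of each gene's lower-coordinate end from that of S100A9, on a broken axis. S100A9 at 0 has the most negative value, -1.93, while genes 177 to 261 kb away lie between -0.67 and 0.17.

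Genes that interact with S100 proteins were taken from a list of 32, of which 25 were tested. Among these, 12 fell, 3 rose and 10 were not called, with a median log2 fold change of -0.13, against 21.6% of all tested genes that fell, 18.7% that rose and a median of 0.02. ANXA2, the annexin partner of S100A10, fell from 510 ± 15.4 to 376 ± 9.08 CPM (SD, n = 3 each; log2 fold change -0.44, SE 0.0439, adjusted p = 2.8e-10, edgeR). Per length, ANXA2 stood at 0.975, 0.852 and 0.916 times the TPM of S100A10 with the control shRNA and at 0.570, 0.638 and 0.575 times with the CTSV shRNA. ANXA1, the annexin partner of S100A11, fell from 30.5 ± 1.55 to 20.6 ± 0.966 CPM (-0.57, SE 0.0982, adjusted p = 1.3e-05, edgeR, n = 3 each). CACYBP, which encodes the calcyclin-binding protein that binds S100A6, fell by 0.36 in log2 units (SE 0.0681, adjusted p = 4.4e-05, edgeR). EZR, the gene of the S100P partner ezrin, fell by 0.15 (SE 0.0477, adjusted p = 0.013, edgeR), and this call was lost without knockdown replicate 3 (adjusted p = 0.0732). MYH9, the nonmuscle myosin gene whose product binds S100A4, was not called (log2 fold change 0.02, SE 0.0431, adjusted p = 0.729), but it was lower with length and GC offsets (-0.12, adjusted p = 0.0101, edgeR).

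Genes of the NADPH oxidase, the superoxide-producing enzyme of phagocytes to which S100A8 and S100A9 deliver arachidonic acid, were on the same list. CYBA, a membrane subunit, fell by 0.36 in log2 units (SE 0.0651, adjusted p = 2.7e-05, edgeR). The oxidase gene CYBB, also listed, had no entry, and neither had S100A8. TGM2, a listed gene outside the oxidase that encodes transglutaminase 2, fell by 0.46 (SE 0.0637, adjusted p = 2.3e-07, edgeR). In the other direction, AHNAK, a giant scaffold protein that binds the S100A10-annexin A2 complex, rose by 0.46 (SE 0.0457, adjusted p = 1.9e-10, edgeR). AGER, which encodes RAGE, a receptor for secreted S100 proteins, rose by 0.64 (SE 0.165, adjusted p = 0.0019, edgeR), from 6.84 CPM with the control shRNA to 10.7 CPM with the CTSV shRNA. S100PBP, the gene of an S100P-binding protein, rose by 0.23 (SE 0.0829, adjusted p = 0.026, edgeR), and in 7 of 13 alternative settings it did not pass. Those included leaving out control replicate 2 or 3, or knockdown replicate 1 or 2.

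Of 15 listed partners and relatives of tescalcin 11 were tested: 3 fell, 1 rose and 7 were not called, with a median of -0.12. Over all tested genes 21.6% fell and 18.7% rose. With length and GC offsets 6 of the list fell and 0 rose. Those offsets also moved the falls over all 15968 tested genes from 3451 to 4746, and the rises from 2982 to 2241. CHP1, another member of the tescalcin family, fell by 0.21 in log2 units (SE 0.0556, adjusted p = 0.0027, edgeR). Per length, TESC was at 0.106, 0.0988 and 0.101 times the TPM of CHP1 with the control shRNA and at 0.0263, 0.0329 and 0.0313 times with the CTSV shRNA. The calcineurin B gene PPP3R1 fell by 0.43 (SE 0.0981, adjusted p = 5.0e-04, edgeR), and SLC9A3R2, a PDZ scaffold gene, by 0.55 (SE 0.113, adjusted p = 1.5e-04, edgeR). The casein kinase gene CSNK1D rose by 0.21 (SE 0.0509, adjusted p = 8.3e-04, edgeR), but not with length and GC offsets (adjusted p = 0.072).

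Other EF-hand genes were counted beside the members. Of 71 listed calcium sensors and buffers, 53 were tested, and 24 fell, 5 rose and 24 were not called, with a median of -0.19. Over all tested genes 21.6% fell, 18.7% rose and the median was 0.02. Without control replicate 1 the rises were 3. Of the calmodulin genes CALM2 and CALM3, named after their values were seen, CALM2 fell by 0.24 on the log2 scale, and CALM3 (-0.10) was not called. In the list of calcium entry, release and pump genes, 8 of 28 tested rose, 7 fell and 13 were not called. The median was 0.02, beside the same shares of all tested genes. With length and GC offsets 11 fell, while the falls over all 15968 tested genes went from 3451 to 4746. The plasma membrane calcium pump genes ATP2B2 (0.52) and ATP2B4 (0.53) rose, while ATP2B1 (-0.10) of the same family was not called. The store-operated entry gene ORAI2 (-0.59) and the chaperone gene CANX (-0.45) fell, while ORAI1 (-0.16) and ORAI3 (0.07) were not called. All of these were likewise named after their values were seen. In the list of other S100 genes and S100-fused genes, 6 of 19 had an entry and 2 were tested, S100A2 and S100PBP.

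A list of 22 transcription factors held those with known sites at S100A9 or named by the promoter motifs searched. They were C/EBP, ATF, AP-1, NF-kB and SP factors, with STAT3, HIF1A and SPI1. None was listed for the TATA box or the antioxidant response element. In all, 21 of the 22 were tested. Of these, 15 fell, 0 rose and 6 were not called, with a median of -0.49, against 21.6% of all tested genes that fell, 18.7% that rose and a median of 0.02. In edgeR the count of rises was also 0 at an unadjusted p under 0.05, and DESeq2 gave 0 rises and 15 falls. ATF4, the regulator of the amino acid response, fell by 0.71 in log2 units (SE 0.0465) from 542 to 330.3 CPM. CEBPB, a liver and myeloid C/EBP factor, fell by 0.97 (SE 0.0904) from 51.6 to 26.4 CPM, and its partner CEBPG fell by 0.60 (SE 0.0477). The NF-kB gene RELB fell by 1.06 (SE 0.156), the AP-1 gene JUN by 0.45 (SE 0.066) and HIF1A by 0.52 (SE 0.045). SP1 (0.10) and SP3 (0.03), whose products bind GC boxes, were not called. Whether any of these factors acts on the members was not tested.

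**Figure D5:**
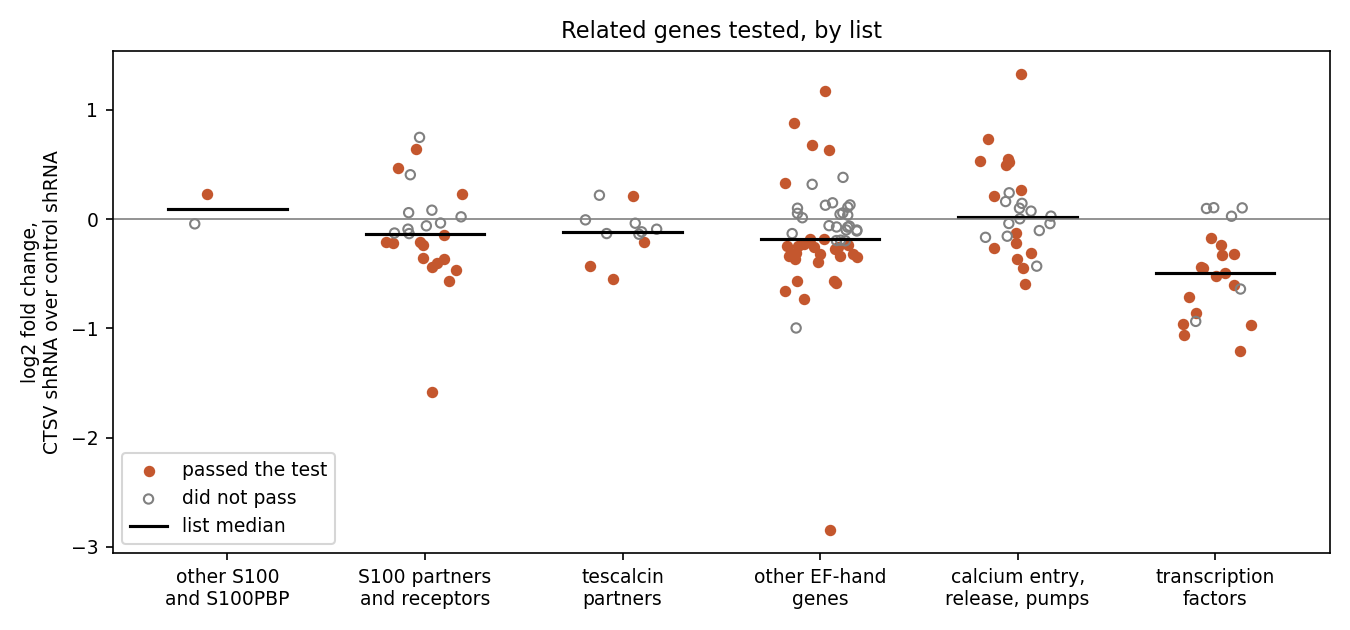
Log2 fold change of each tested gene in the 6 lists of related genes. Filled points passed the edgeR threshold, open points did not, and the black line is the list median, which is lowest for transcription factors (-0.49) and 0.02 for calcium entry, release and pump genes.

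The genes most like S100A9 and TESC over the 6 libraries were sought among 12063 others with a mean of at least 2 CPM, by the root mean square difference of log2 CPM after centring each gene on its mean. For S100A9 the 5 nearest included GDF15 (0.111), a stress-induced cytokine gene, AKR1B10 (0.138), an aldo-keto reductase gene, LFNG (0.147), a glycosyltransferase gene of the Notch pathway, and TESC (0.174). For TESC they included GDF15 (0.0929), SLC7A11 (0.171), the cystine transporter gene, and S100A9 (0.174). The values in parentheses are differences on the log2 scale and not levels. S100A9 and TESC were both chosen for their falls in this contrast, so nothing is read from their likeness to each other. AKR1B10 was at 29.1 ± 3.39 CPM with the control shRNA and 8.87 ± 1.00 CPM with the CTSV shRNA (SD, n = 3 each). Likeness over 3 libraries against 3 rests mainly on an equal difference between the groups, and log2 CPM with a prior count of 2 narrows the differences of low genes.

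In the authors' deposited table, with its sign turned to CTSV shRNA over control shRNA, the log2 fold change was -1.94 for S100A9, -1.97 for TESC, -1.56 for S100P, -0.57 for S100A11, -0.58 for S100A6 and 0.17 for S100A10.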

How the data were processed

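RNA-seq of 6 Huh7 libraries was analysed from one table. TRIzol and an NEBNext Ultra II mRNA kit were used, per the labels' protocols. The authors deposited raw read counts for each gene. HISAT2, StringTie and SAMtools with hg38 were used, per the submitters' processing notes; the counting tool, annotation and strand use are not stated. The authors also deposited log2 fold changes (control over knockdown) and p-values.

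Of 28915 entries, 1521 were copies of a gene name with identical values and were removed, leaving 27394. Coordinates are those of the table; exonic lengths and GC came from GENCODE v29 (27287 names matched). The fit was edgeR 4.0.16 in R 4.3.3 (glmQLFit, glmQLFTest, TMM, filterByExpr, Benjamini-Hochberg over 15968 genes, called at 0.05), without covariates. Libraries held 16258803 to 18106207 counts, and CPM values use TMM-scaled totals of 16052227 to 18177930; the biological coefficient of variation was 6.87%. SE is the absolute log2 fold change over the square root of F. TPM is count per exonic length, scaled to a fixed sum per library over names with a length. DESeq2 1.42.0, other normalizations, filters, a replicate block, offsets and leaving out each library were alternatives. On simulated data the fit recovered 44.9% of 1.2-fold, 67.3% of 1.5-fold, 75.5% of 2-fold and 91.8% of 3-fold changes. It made 6 false calls among 15630 genes, so small differences can be missed. No replicate pair agreed within counting noise. The members, the 6 gene lists, the motifs and the rule for named genes were chosen with earlier results of these data known. The rule names every member, up to 6 called genes per list and direction with the smallest adjusted p, direct partners, neighbours in the genome and the 5 genes most alike. Some genes it names are not reported here.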

Additional observations from a re-analysis of the deposited data

How the results depend on the processing

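The results were recomputed with 13 alternatives. The counts of members called lower stayed at 5 in each of them. Falls over all genes tested moved, for instance 3520 of 27394 with no low-count filter and 4746 of 15968 with length and GC offsets. As the members were chosen from this contrast in the same libraries, nothing is read from the count of 5. The single member called higher, S100A10, was not called with DESeq2 or with all deposited entries kept (0 members in each), and leaving out 1 library at a time gave 0 to 1. Replicate numbers did not pair the libraries (correlations of same-numbered deviations of -0.012, -0.0025 and 0.021), and with the replicate number as a block 2996 genes rose and 3490 fell, with the same 5 and 1 among the members. Length and GC offsets gave 2241 rises and 4746 falls and turned the log2 fold change of MYH9 to -0.12. The log2 fold change of S100A9 lay between -1.99 and -1.83, of TESC between -2.01 and -1.87, and of S100P between -1.70 and -1.44. That of S100A13 lay between -0.39 and 0.54, below 0 only without knockdown replicate 1. Among the related lists, length and GC offsets raised the falls from 3 to 6 for tescalcin partners and from 7 to 11 for calcium entry, release and pumps. They also raised the falls from 12 to 17 for S100 partners and receptors and from 24 to 31 for other EF-hand genes. Falls of transcription factors stayed at 15 and those of other S100 genes at 0. Falls of tescalcin partners were 5 with all deposited entries kept. Rises of other EF-hand genes were 5, and 3 with DESeq2 or without control replicate 1. The 1 rise among other S100 genes, S100PBP, became 0 with no low-count filter, with length and GC offsets, with DESeq2, and without control replicate 2 or 3 or knockdown replicate 1 or 2. Ranking by the longest transcript moved 0 members in the control order, and ranking by CPM without length moved 4. Counts were under 50 in every library for S100A4, S100A13 and S100A14, and in every knockdown library for S100A9 and TESC, which limits their precision.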
